A study of Homo sapiens with 12 samples.

Results

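The interferon gamma (IFNγ) receptor chains, Janus kinases (JAK) and signal transducers and activators of transcription (STAT) described here are 9 genes taken by name, namely IFNGR1, IFNGR2, JAK1, JAK2, TYK2, STAT2, STAT3, STAT5A and STAT6. They are 9 of the 40173 gene IDs in the deposited expression table, and the rule that takes them uses their names and no measured value, although earlier results of these data were known when they were listed. All 9 reached the minimum mean of 2 TPM in every condition and so were among the 12773 gene IDs that were tested. TPM are transcript abundances scaled to transcript length and to the library's total, so that levels of different genes can be set side by side.

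The study asked how loss of differentiation alters the answer of melanoma cells to IFNγ. RNA of 624Mel, an established human melanoma line, was sequenced after reverse transfection with a control siRNA (siCTRL) or an siRNA against MITF (siMITF), the transcription factor that directs the melanocyte lineage. IFNγ was added at 5 ng/mL 24 h after transfection and cells were collected 24 h later, which gave siCTRL, siCTRL + IFNγ, siMITF and siMITF + IFNγ cells with 3 libraries each. All 4 conditions came from this 1 cell line and each carried an siRNA, and the study's methods describe its experiments as independent biological replicates, while the labels give only replicate numbers.

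IFNγ binds a cell surface receptor made of IFNGR1, the chain that holds the ligand, and IFNGR2, the accessory chain. JAK1 sits on IFNGR1 and JAK2 on IFNGR2, and the activated kinases phosphorylate STAT proteins, which pair, enter the nucleus and bind gamma-activated sites near target genes. TYK2 and STAT2 are better known from the type I interferon receptor, where STAT2 joins IRF9 in a complex that binds interferon-stimulated response elements, whereas STAT3, STAT5A and STAT6 are the usual messengers of interleukin-6 type cytokines, growth hormone and prolactin, and interleukin-4 and interleukin-13.

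The sequences before the starts of STAT2, STAT3 and STAT6 are shown because these STAT genes carried the differences described further on. Each is the 250 bases before a RefSeq transcript start on GRCh38.p14, read 5′ to 3′ on the gene's own strand, which is the minus strand for all 3. The STAT2 stretch is chr12:56360108-56360357, the STAT3 stretch is chr17:42388443-42388692 and the STAT6 stretch is chr12:57110290-57110539. Capitals were reserved for matches to the motifs searched, and none of these stretches holds one.
STAT2: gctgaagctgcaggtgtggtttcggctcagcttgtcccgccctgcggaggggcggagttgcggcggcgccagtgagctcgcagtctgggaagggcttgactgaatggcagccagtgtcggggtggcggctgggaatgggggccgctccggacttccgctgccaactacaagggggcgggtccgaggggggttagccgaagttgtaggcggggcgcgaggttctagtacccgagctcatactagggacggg
STAT3: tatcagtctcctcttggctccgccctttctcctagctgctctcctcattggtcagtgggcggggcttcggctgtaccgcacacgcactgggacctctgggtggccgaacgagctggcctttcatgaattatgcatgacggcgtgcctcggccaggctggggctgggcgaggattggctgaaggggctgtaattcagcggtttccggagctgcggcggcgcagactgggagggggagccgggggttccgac
STAT6: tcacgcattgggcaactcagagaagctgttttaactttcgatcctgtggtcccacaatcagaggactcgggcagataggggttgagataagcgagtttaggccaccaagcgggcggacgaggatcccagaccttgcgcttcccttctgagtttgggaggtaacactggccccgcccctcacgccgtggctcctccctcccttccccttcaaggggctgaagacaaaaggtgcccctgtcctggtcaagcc

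The motif search used both strands of windows from 250 bases before to 50 bases after each start, and the 9 genes had 17 such windows. The gamma-activated site, spelled TTCNNNGAA, was in none of the 17 and in 7.66% of all 35116 RefSeq windows. The core of the interferon-stimulated response element, spelled GAAANNGAA, was likewise in none of the 17 and in 8.11% of all windows. Of the E-boxes that MITF can bind, CACGTG was in none of the 17 windows and in 7.26% of all, while CATGTG was in 1 window of JAK1 and 1 window of JAK2 and in 11.1% of all. No match says only that these letters were not in these windows. The 250 bases before the start were 67.2% G and C for STAT2, 64.4% for STAT3 and 58.4% for STAT6, against a median of 58% over all windows.

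The targeted gene checked the labels. MITF was at 187, 229 and 217 TPM in siCTRL replicates 1 to 3 and at 36.0, 49.7 and 41.7 TPM in siMITF replicates 1 to 3. With IFNγ it was at 158, 246 and 243 TPM in siCTRL cells and at 37.5, 55.1 and 51.3 TPM in siMITF cells, so every siMITF library lay below every siCTRL library. The melanocytic markers PMEL, MLANA, TYR, DCT and SOX10 had condition means from 17.2 to 4827 TPM. The 13 markers of leukocytes, epithelial cells, fibroblasts and endothelial cells had condition means of at most 0.842 TPM, summed to 1.93 to 2.73 TPM per condition, and CD3E, the T cell marker, was listed at 0 in every library. Mitochondrial genes took 7.42% to 16.9% of TPM, with the highest share in both IFNγ libraries of replicate 1, and no pair of libraries held identical values.

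At rest the 9 genes spanned a broad range of mRNA levels. In siCTRL cells JAK1 was at 51.4 ± 4.77 TPM and STAT6 at 48.9 ± 2.71 TPM (mean ± SD, n = 3), and their ranges over libraries overlapped. STAT3 followed at 31.7 ± 2.43 TPM, IFNGR2 at 28.0 ± 4.70 TPM, IFNGR1 at 25.6 ± 2.85 TPM and TYK2 at 24.1 ± 1.04 TPM, and neighbours among these 4 overlapped. STAT2 at 17.6 ± 1.27 TPM, STAT5A at 14.8 ± 0.290 TPM and JAK2 at 8.25 ± 1.38 TPM came last, with no overlap between neighbours. JAK2 was lowest in all 4 conditions. Its mean over all libraries, 8.10 TPM, exceeded that of 26.5% of the tested genes, compared with 75.4% for JAK1.

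With IFNγ the order was different at the top. STAT3 at 113 ± 24.3 TPM and STAT2 at 104 ± 13.7 TPM led in siCTRL + IFNγ cells, their ranges overlapped, and all libraries of both genes lay above all libraries of the other 7 genes. The same pair led in siMITF + IFNγ cells, where STAT3 was at 136 ± 30.2 TPM and STAT2 at 127 ± 11.1 TPM. STAT6 was at 65.3 ± 2.75 TPM in siMITF cells without IFNγ, above JAK1 at 46.0 ± 4.44 TPM, and these ranges did not overlap.

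The first question was which of the genes responded to IFNγ in siCTRL cells. STAT2 and STAT3 rose and none of the other 7 passed the test, an adjusted p under 0.05 in limma over all tested genes. Thus 2 of the 9 were called higher, against 6.8% of all tested genes, and 0 were called lower, against 6.14%. Of all genes called here 52.5% were higher, and 41.7% were after quantile normalization. Both also passed a log2 fold change of at least 1, which 2.51% of tested genes did in the upward direction. Fold changes are on the scale of log2(TPM + 1), which understates changes of genes at low levels. In bulk RNA, fewer cells with a transcript and less of it per cell cannot be told apart.

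STAT2 (chromosome 12, 56341597 to 56360203) was at 16.8, 19.0 and 16.8 TPM in siCTRL replicates 1 to 3 and at 90.8, 118 and 102 TPM in siCTRL + IFNγ replicates 1 to 3. The lowest treated library was thus far above the highest untreated library. The log2 difference was 2.49 (SE 0.11, 95% confidence interval 2.25 to 2.73, 5.61-fold, adjusted p = 3.92e-09). Within each replicate number the TPM ratio was between 5.41 and 6.21, and STAT2 held rank 110 from the top of the 12773 tested genes.

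STAT3 (chromosome 17, 42313324 to 42388540) was at 28.9, 33.0 and 33.1 TPM in siCTRL replicates 1 to 3 and at 86.0, 132 and 122 TPM with IFNγ. All treated libraries lay above all untreated ones, although replicate 1 was well below the other IFNγ libraries. The log2 difference was 1.79 (SE 0.17, 95% confidence interval 1.41 to 2.17, 3.45-fold, adjusted p = 1.17e-05), which was rank 178 from the top. The ratio within a replicate number ran from 2.98 to 4.01.

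STAT5A (chromosome 17, 42287547 to 42311943), which lies beside STAT3, was at 14.6, 14.6 and 15.1 TPM in siCTRL cells and at 15.6, 22.7 and 20.5 TPM with IFNγ. The groups did not overlap, but the log2 difference of 0.37 did not pass the test (95% confidence interval 0.02 to 0.72, adjusted p = 0.164). In a fit with replicate number as a blocking factor the adjusted p was 0.0434. Without the replicate 1 IFNγ libraries of both siRNAs the difference was 0.52. That fit was added after seeing the data and leaves out the lowest STAT5A library of each IFNγ condition, so it is given without a p. STAT5A shares 415 exonic bases with STAT5B on the opposite strand, and the library kit keeps no strand information, so reads from that stretch cannot be assigned to either gene.

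STAT6 had a log2 difference of 0.06 with IFNγ in siCTRL cells, with a 95% confidence interval from -0.21 to 0.32. The receptor chains and kinases did not pass the test either. IFNGR1 was at 23.1 to 28.7 TPM without and 21.7 to 27.9 TPM with IFNγ, a log2 difference of -0.06 (interval -0.29 to 0.16). IFNGR2 was at 24.1 to 33.2 TPM without and 22.01 to 30.7 TPM with IFNγ, a difference of -0.07 (interval -0.45 to 0.32). JAK1 differed by 0.03 (interval -0.33 to 0.38), JAK2 by 0.06 (interval -0.34 to 0.47) and TYK2 by 0.10 (interval -0.15 to 0.35). The intervals of IFNGR2, JAK1 and JAK2 include a difference as large as the 0.37 of STAT5A in 1 direction, so a p above the threshold does not show that these genes stayed the same.

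The next question was whether the IFNγ response of these genes differed after MITF knockdown. In siMITF cells STAT2 and STAT3 again rose, and 2 of the 9 were called higher, against 7.99% of tested genes, while 0 were called lower, against 12.2%. At a log2 fold change of at least 1 the upward share of all tested genes was 2.75%. The median log2 difference over all tested genes was -0.07 for IFNγ in siCTRL cells and -0.10 in siMITF cells, and over the 9 genes it was 0.06 and 0.09.

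STAT2 was at 22.5, 23.7 and 19.2 TPM in siMITF replicates 1 to 3 and at 115, 129 and 137 TPM in siMITF + IFNγ replicates 1 to 3. The log2 difference was 2.49 (SE 0.11, 5.62-fold, adjusted p = 3.30e-09), with ratios within a replicate number from 5.11 to 7.13. STAT3 was at 43.0, 49.3 and 43.2 TPM without and at 101, 150 and 157 TPM with IFNγ. Its log2 difference was 1.55 (SE 0.17, 2.92-fold, adjusted p = 3.99e-05), with ratios from 2.36 to 3.63. For both genes all IFNγ libraries lay above all untreated libraries.

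The difference between the IFNγ responses of siMITF and siCTRL cells was tested as an interaction, and 0 of the 9 genes passed in limma, with 0 also at an unadjusted p under 0.05. Among all tested genes 0.705% were called with a positive and 0.243% with a negative interaction. For STAT2 the 95% confidence interval of the interaction was -0.34 to 0.35 around an estimate of 0.00. For STAT3 the estimate was -0.24 with an interval from -0.78 to 0.29. The interaction estimate farthest from 0 among the 9 was that of TYK2 at -0.35 (interval -0.70 to 0.00, unadjusted p = 0.0509, adjusted p = 0.655), followed by IFNGR2 at -0.30 (interval -0.85 to 0.24).

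IFNGR2 (chromosome 21, 33403413 to 33479348) was at 31.8, 33.6 and 38.2 TPM in siMITF cells and at 19.8, 28.8 and 32.3 TPM in siMITF + IFNγ cells, lower with IFNγ in 3 of 3 replicate pairs but with overlapping groups. The log2 difference of -0.37 had an adjusted p of 0.164, and of 0.0195 with the replicate block. TYK2 (chromosome 19, 10350533 to 10380608) was at 23.9, 25.2 and 24.1 TPM in siMITF cells and at 16.9, 22.2 and 22.4 TPM with IFNγ, with no overlap. Its difference of -0.25 had an adjusted p of 0.146, and of 0.0429 with the block. In siCTRL cells the TYK2 groups overlapped, at 23.1 to 25.1 TPM without and 23.4 to 29.6 TPM with IFNγ.

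The other 5 genes did not pass the test for IFNγ in siMITF cells. JAK2 (chromosome 9, 4984390 to 5129948) was higher with IFNγ in 3 of 3 replicate pairs under either siRNA, by a log2 difference of 0.26 in siMITF cells (adjusted p = 0.348). STAT5A was at 14.9, 15.2 and 14.7 TPM without and at 13.4, 19.7 and 21.7 TPM with IFNγ, a difference of 0.25 (adjusted p = 0.304). Without siMITF + IFNγ replicate 1, its lowest library, that difference was 0.45 with an adjusted p of 0.0341. This was 1 call in 6 fits without 1 library. IFNGR1 (chromosome 6, 137197483 to 137219449) was at 23.4 to 26.8 TPM without and 22.8 to 23.1 TPM with IFNγ, a difference of -0.11 (adjusted p = 0.486). JAK1 (chromosome 1, 64833223 to 65067754) differed by 0.09 and STAT6 (chromosome 12, 57095408 to 57132139) by -0.01.

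**Figure D1:**
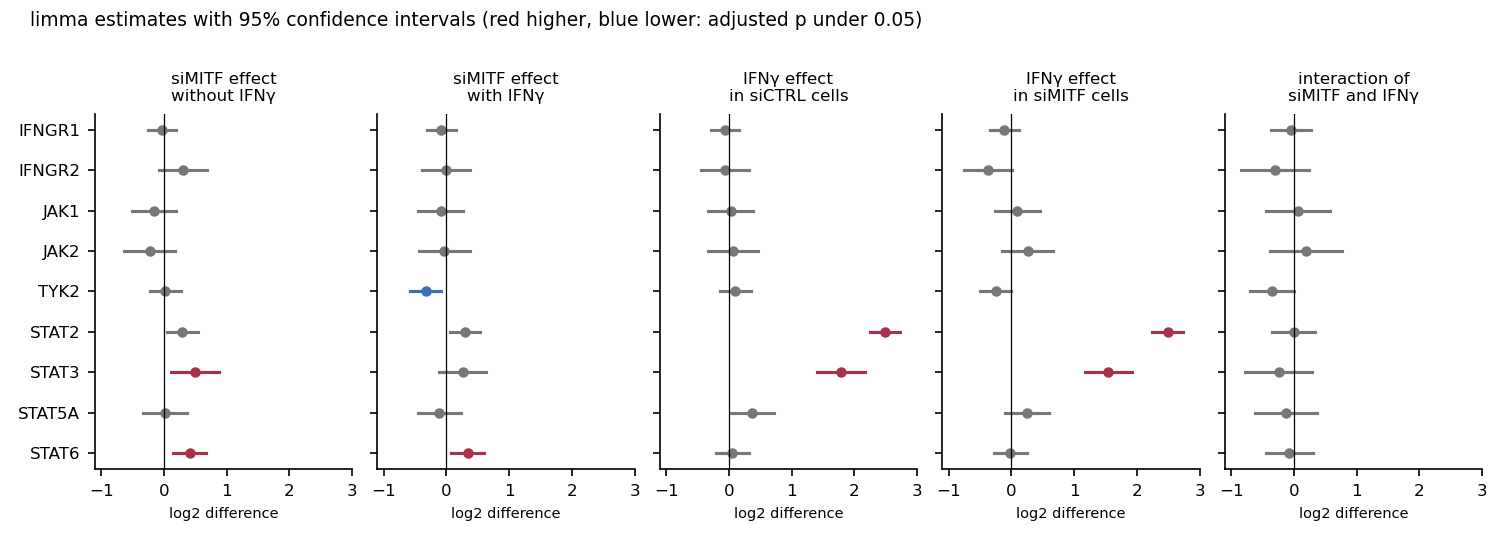
log2 differences of TPM + 1 (x axes) for the 9 genes (rows) in the 4 comparisons and the interaction, as limma estimates (points) with 95% confidence intervals (lines), n = 3 libraries per condition. STAT2 lies at 2.49 in both IFNγ comparisons and STAT3 at 1.79 and 1.55, while every interval of the interaction includes 0.

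The last pair of comparisons set siMITF against siCTRL cells at the same IFNγ state. Without IFNγ, STAT3 and STAT6 were higher in siMITF than in siCTRL cells, so that 2 of 9 were called higher, against 21% of tested genes, and 0 were called lower, against 13.8%. With IFNγ in both arms STAT6 was higher and TYK2 lower, so 1 of 9 was called higher, against 18.4%, and 1 lower, against 14.7%. The shares of the 9 genes were thus near those of all tested genes. The median log2 difference over the 9 genes was 0.02 without and -0.03 with IFNγ, against 0.06 and 0.03 over all tested genes.

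STAT6 was at 46.3, 51.7 and 48.6 TPM in siCTRL cells and at 63.9, 68.4 and 63.5 TPM in siMITF cells. The groups did not overlap, and the log2 difference was 0.41 (SE 0.12, 1.33-fold, adjusted p = 0.0187). With IFNγ it was at 43.6, 56.6 and 53.2 TPM in siCTRL cells and at 53.1, 71.9 and 70.5 TPM in siMITF cells, where the lowest siMITF library was within the siCTRL range. The difference there was 0.34 (SE 0.12, 1.27-fold, adjusted p = 0.0474). STAT6 was higher in siMITF cells in 3 of 3 replicate pairs without and in 3 of 3 with IFNγ, and the interaction was -0.07. Exons of STAT6 share 69 bases with NAB2 and 59 with LRP1 on the opposite strand. The call without IFNγ was lost when siCTRL replicate 1, siCTRL replicate 3 or siMITF replicate 2 was left out (adjusted p = 0.0685, 0.0541 and 0.0681). The call with IFNγ was lost in 4 of 6 such fits, those without siCTRL + IFNγ replicate 1 or 3 or siMITF + IFNγ replicate 2 or 3 (adjusted p from 0.0766 to 0.164). With the replicate block and all libraries the adjusted p was 0.000901 without and 0.00348 with IFNγ.

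STAT3 without IFNγ was at 28.9 to 33.1 TPM in siCTRL cells and at 43.0 to 49.3 TPM in siMITF cells, with no overlap. The log2 difference was 0.50 (SE 0.17, 1.41-fold, adjusted p = 0.0419), and STAT3 was higher in 3 of 3 replicate pairs. The call was lost in each of the 6 fits without 1 of these libraries, with adjusted p from 0.0698 to 0.132 and log2 differences from 0.44 to 0.53. With the replicate block and all libraries the adjusted p was 0.00161. With IFNγ the difference was 0.26 and the groups overlapped (adjusted p = 0.286). Over the 6 fits without 1 IFNγ library it ran from 0.07 to 0.46, with 1 call. The lowest was without siCTRL + IFNγ replicate 1 (adjusted p = 0.756). The highest, which was the call, was without siMITF + IFNγ replicate 1 (adjusted p = 0.0361).

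STAT2 differed by 0.29 without IFNγ (adjusted p = 0.0584) and by 0.30 with IFNγ (adjusted p = 0.0596), and was higher in siMITF cells in 3 of 3 replicate pairs in either setting. With the replicate block the adjusted p was 0.0137 without IFNγ and 0.0136 with IFNγ. Without IFNγ 1 of 6 fits without 1 library made a call, that without siMITF replicate 3 (0.38, adjusted p = 0.0333). With IFNγ 2 of 6 did, without siCTRL + IFNγ replicate 2 (0.39, adjusted p = 0.0183) or siMITF + IFNγ replicate 1 (0.37, adjusted p = 0.0325). The other fits made no call, with differences down to 0.23 without and 0.21 with IFNγ (adjusted p up to 0.199 and 0.181).

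TYK2 with IFNγ was at 23.4, 29.6 and 24.8 TPM in siCTRL cells and at 16.9, 22.2 and 22.4 TPM in siMITF cells, with no overlap. The log2 difference was -0.33 (SE 0.11, adjusted p = 0.0423), and siMITF was lower in 3 of 3 replicate pairs. Without IFNγ the difference was 0.02, with an interval from -0.23 to 0.27. The call was lost when siCTRL + IFNγ replicate 2, siCTRL + IFNγ replicate 3 or siMITF + IFNγ replicate 1 was left out (adjusted p = 0.144, 0.0740 and 0.135). With the replicate block and all libraries the adjusted p with IFNγ was 0.00840.

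The receptor chains and the other kinases did not pass the test for MITF knockdown. IFNGR2 without IFNγ was at 24.1, 33.2 and 26.7 TPM in siCTRL cells and at 31.8, 33.6 and 38.2 TPM in siMITF cells, a log2 difference of 0.30 (adjusted p = 0.215, and 0.0364 with the replicate block). Exons of IFNGR2 share 380 bases with TMEM50B on the opposite strand, whose reads cannot be told apart there. IFNGR1 differed by -0.03 without and -0.08 with IFNγ. JAK1 was lower in siMITF cells in 3 of 3 replicate pairs without and with IFNγ, by -0.16 and -0.09 (adjusted p = 0.503 and 0.716). JAK2 differed by -0.23 and -0.03 and STAT5A by 0.01 and -0.11.

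The makeup of the measured STAT mRNA was described by shares. For STAT2, STAT3, STAT5A and STAT6 the shares in libraries with IFNγ did not overlap those without it under the same siRNA. This holds for shares and not for the levels of all 4 genes. In siCTRL cells the TPM of the 4 STAT genes summed to 113 ± 5.93 (n = 3), of which STAT6 held 43.3% ± 0.495, STAT3 28.1% ± 1.04, STAT2 15.6% ± 0.646 and STAT5A 13.1% ± 0.712. With IFNγ the sum was 288 ± 47.6 TPM, and the shares were 39.2% ± 2.42 for STAT3, 36.2% ± 2.16 for STAT2, 17.8% ± 0.668 for STAT6 and 6.80% ± 0.171 for STAT5A. STAT6 thus went from the largest to the third share of these 4 genes, although its own level differed by only 0.06 on the log2 scale. These shares leave out STAT genes that are not among the 4.

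In siMITF cells the sum was 147 ± 8.40 TPM without and 346 ± 55.6 TPM with IFNγ, with STAT6 at 44.4% and 18.8%, STAT3 at 30.7% and 39.0%, STAT2 at 14.8% and 37.0% and STAT5A at 10.1% and 5.22%. The ratio of STAT2 to STAT3 TPM was 0.555 ± 0.0405 in siCTRL and 0.483 ± 0.0393 in siMITF cells, and 0.927 ± 0.115 and 0.956 ± 0.154 with IFNγ. Among the kinases JAK1 held 59.4% to 63.0% of the summed JAK TPM in the 4 conditions, TYK2 26.2% to 31.6% and JAK2 8.92% to 10.8%. The ratio of IFNGR1 to IFNGR2 TPM was 0.921 ± 0.0497 in siCTRL and 0.730 ± 0.103 in siMITF cells without IFNγ, and 0.924 ± 0.0578 and 0.890 ± 0.232 with it.

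**Figure D2:**
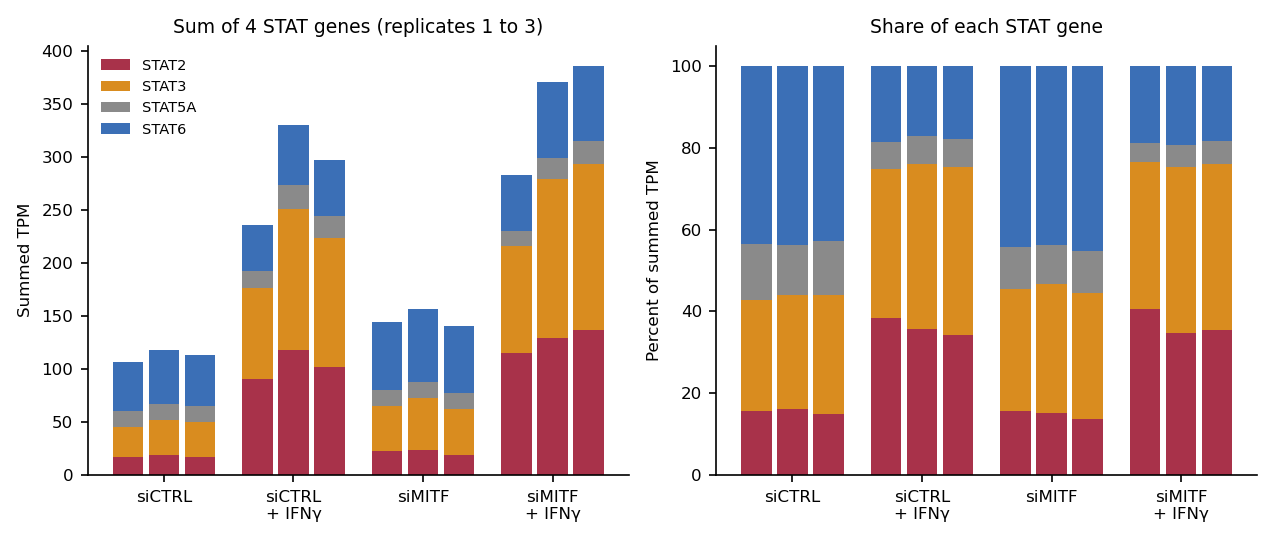
Summed TPM of STAT2, STAT3, STAT5A and STAT6 (left, y axis from 0) and the share of each in that sum in percent (right), as 1 stacked bar per library with replicates 1 to 3 from left to right in each condition (x axes). The sum averages 113 TPM in siCTRL and 288 TPM in siCTRL + IFNγ cells, and the STAT6 share 43.3% and 17.8%.

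The 9 genes were low in replicate 1 and high in replicate 2 of the IFNγ conditions. In siCTRL + IFNγ replicate 1 and in siMITF + IFNγ replicate 1 all 9 genes were below their condition mean, with median deviations of -0.22 and -0.28 on the log2 scale, compared with -0.13 and -0.10 over all tested genes. All 9 were also below the mean in siCTRL replicate 1, by a median of -0.10, and 8 were in siMITF replicate 1 and in siMITF replicate 3. Replicate 2 lay the other way, with 0 of 9 below the mean in siCTRL + IFNγ cells and 1 in each other condition. The median there was 0.20 in siCTRL + IFNγ cells, compared with 0.13 over all tested genes. Deviations within a condition sum to 0 for each gene, so low and high libraries are not separate observations. STAT3 and STAT5A in siMITF + IFNγ replicate 1 were the farthest below with IFNGR2, at -0.39, -0.40 and -0.40. The coefficient of variation of STAT5A was 1.96% in siCTRL and 1.74% in siMITF cells, and 18.6% and 23.8% with IFNγ. The mitochondrial share of TPM was 16.9% in both of these IFNγ libraries 8.45% and 12.7% in replicate 2 and 15.7% and 16.1% in replicate 3 of the same conditions, where the median deviation of the 9 genes was 0.03 and 0.12. With mitochondrial genes left out and TPM rescaled, 1 gene changed its calls, STAT2, which then passed for siMITF without IFNγ (adjusted p = 0.0139) and with it (adjusted p = 0.00959). With both replicate 1 IFNγ libraries left out, STAT2, STAT3 and STAT5A were called higher with IFNγ under either siRNA. That fit was chosen after seeing the data, and replicate 1 held the lowest STAT5A value of each IFNγ condition.

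Other genes of the pathway were read from lists of JAK and STAT relatives, receptors, inhibitors, transcription partners and ligands. Of JAK3, STAT4 and STAT5B only STAT5B reached 2 TPM in a condition. STAT5B, the close relative of STAT5A, was at 17.5 ± 1.21 TPM in siCTRL and 17.1 ± 2.01 TPM in siCTRL + IFNγ cells, with log2 differences for IFNγ of -0.04 and -0.07 in siCTRL and siMITF cells, and did not pass any of the 5 tests. JAK3 had condition means of at most 0.495 TPM and STAT4 of at most 0.225 TPM.

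Of 23 other cytokine receptor chains that signal through JAKs, 16 were tested. With IFNγ 3 rose and 1 fell in siCTRL cells, against 6.8% and 6.14% of all tested genes, and 3 rose and 3 fell in siMITF cells, against 7.99% and 12.2%. Their median log2 difference was 0.02 and 0.01, against -0.07 and -0.10 over all tested genes. The counts include IL15RA as rising and IL7R and CNTFR as falling, which entered the test only through conditions where they were higher. IFNAR2, a chain of the type I interferon receptor, rose from 15.3 ± 0.504 to 32.2 ± 2.69 TPM in siCTRL cells, by 1.02 (adjusted p = 2.52e-06), and by 1.08 in siMITF cells. IL10RB, a chain shared by the interleukin-10 and type III interferon receptors, rose by 0.75 and 0.62 (adjusted p = 8.14e-05 and 0.000327). IFNAR2 and IL10RB belong to the same receptor gene cluster on chromosome 21 as IFNGR2, which did not pass the test for IFNγ. IFNAR1, listed with these receptors, did not pass it either, with differences of 0.25 in siCTRL (adjusted p = 0.289) and 0.21 in siMITF cells (adjusted p = 0.332).

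IL15RA, the private chain of the interleukin-15 receptor, was at 0.0479 ± 0.0169 TPM in siCTRL and 0.486 ± 0.155 TPM in siCTRL + IFNγ cells, and at 0.0387 ± 0.0109 and 2.28 ± 0.257 TPM in siMITF cells. It entered the test only through the last of these conditions, where it was highest, so its interaction of 1.15 is a description and is given without a p. IL7R, which reached 2 TPM in conditions without IFNγ only, fell with IFNγ by 0.48 on the log2 scale in siCTRL cells and by 0.83 in siMITF cells, with an interaction of -0.35 (adjusted p = 0.727). GHR, the growth hormone receptor, fell by 0.94 in siMITF cells, compared with a difference of -0.55 in siCTRL cells (adjusted p = 0.0526) and an interaction of -0.39 (adjusted p = 0.826). CNTFR, which reached 2 TPM in siMITF cells only, fell by 0.47 there. In siCTRL cells its difference was -0.27 (adjusted p = 0.0990), and its interaction was -0.19 (adjusted p = 0.900). For MITF knockdown 5 of the 16 rose and 2 fell without IFNγ, against 21% and 13.8% of all tested genes, and 3 rose and 2 fell with it, against 18.4% and 14.7%. IL6R, the ligand-binding chain for interleukin-6, fell by 1.17 without IFNγ (47.8 ± 5.90 to 20.6 ± 1.96 TPM, adjusted p = 0.000168) and by 1.32 with it. LEPR, the leptin receptor, rose by 1.10 from 0.756 ± 0.152 to 2.77 ± 0.184 TPM without IFNγ, having entered the test only through siMITF cells. GHR fell by 0.64 without IFNγ and by 1.03 with it.

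Of 18 inhibitors of the pathway 17 were tested, and 4 rose and 3 fell with IFNγ in siCTRL cells (6.8% and 6.14% of all tested genes), while 5 rose and 2 fell in siMITF cells (7.99% and 12.2%). Their median log2 difference was -0.10 and -0.12. SOCS3, a feedback inhibitor of JAK signalling, rose by 2.75 in siCTRL and 2.37 in siMITF cells, from 0.942 ± 0.305 to 11.96 ± 1.06 TPM in the former. SOCS1, which blocks JAK kinase activity, rose by 1.91 and 2.03, from 0.268 ± 0.0641 to 3.80 ± 0.835 TPM in siCTRL and from 1.84 ± 0.330 to 10.6 ± 1.14 TPM in siMITF cells. The scale of log2(TPM + 1) understates the rise from 0.268 TPM more than that from 1.84 TPM, so these values do not show equal folds. USP18, which restrains the type I interferon receptor, rose by 2.62 and 2.48 (5.03 ± 0.340 to 36.2 ± 2.74 TPM in siCTRL cells). CISH rose by 0.67 and 0.97, and PTPN2, a phosphatase that acts on JAKs and STATs, rose by 0.32 in siMITF cells (adjusted p = 0.0187). In siCTRL cells its difference was 0.15 (adjusted p = 0.304), and its interaction was 0.17 (adjusted p = 0.881). SOCS1 and SOCS3 reached 2 TPM in IFNγ conditions only. They entered the test through the conditions where they were high, so their rises are descriptions given without a p. The counts of rising inhibitors include both.

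SOCS2, an inhibitor of growth hormone signalling, fell with IFNγ by 1.02 in siCTRL and by 0.81 in siMITF cells. SH2B3 fell by 0.60 and by 0.42, and SOCS4 fell by 0.34 in siCTRL cells, with a value of 0.04 in siMITF cells. With MITF knockdown 4 of the 17 rose and 5 fell without IFNγ, and 3 rose and 4 fell with it, beside the same shares of all tested genes as for the receptors (21% and 13.8%, then 18.4% and 14.7%). SOCS2 rose by 1.68 without IFNγ, from 12.6 ± 1.31 to 42.2 ± 1.00 TPM (adjusted p = 9.63e-08), and by 1.88 with it. SOCS1 rose by 1.16 and 1.28. USP18 fell by 0.68 without and by 0.82 with IFNγ, SOCS4 fell by 0.70 and by 0.32, and CISH fell by 0.47 without IFNγ and had a difference of -0.17 with it (adjusted p = 0.260). None of the 17 had an interaction past the threshold in limma on the scale of log2(TPM + 1), and the SOCS3 estimate was -0.37 (adjusted p = 0.697). For genes at low levels, such as SOCS1, the interaction depends on that scale.

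The transcription partners IRF1, IRF2 and IRF9 were all higher with IFNγ under either siRNA, 3 of 3, against 6.8% of all tested genes in siCTRL and 7.99% in siMITF cells. IRF1, an IFNγ target that activates many interferon-response genes, rose from 2.49 ± 0.292 to 88.0 ± 12.8 TPM in siCTRL and from 3.08 ± 0.247 to 155 ± 19.1 TPM in siMITF cells, log2 differences of 4.66 and 5.25 (adjusted p = 2.19e-11 and 5.17e-12). With IFNγ in both arms IRF1 was higher in siMITF cells by 0.82 (adjusted p = 0.000228), but its interaction of 0.59 did not pass the threshold (adjusted p = 0.210). IRF9, the partner of STAT2, rose by 2.24 in siCTRL cells, from 7.93 ± 0.827 to 41.2 ± 3.19 TPM, and by 2.86 in siMITF cells, from 4.51 ± 0.144 to 38.9 ± 0.976 TPM. Its interaction of 0.61 passed the threshold (adjusted p = 0.0448), and its level without IFNγ fell with MITF knockdown by 0.69 on the log2 scale, so that the levels with IFNγ differed by -0.08 (adjusted p = 0.549). STAT2 by comparison had a log2 difference of 0.29 for MITF knockdown without IFNγ and an interaction of 0.00. IRF2 rose by 0.72 and 0.86.

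Of 11 ligands only IL6, IL10 and IL15 reached 2 TPM in a condition. IFNG, the gene of IFNγ itself, IFNB1 and IFNL1 were listed at 0 in every library. IL15 rose with IFNγ by 1.43 in siCTRL and by 0.89 in siMITF cells (0.324 ± 0.0313 to 2.56 ± 0.257 TPM in the former), having entered the test only through siCTRL + IFNγ cells. Its interaction of -0.53 did not pass the threshold (adjusted p = 0.327). IL6, which reached 2 TPM in siCTRL cells only, fell by 0.52 in siCTRL cells. In siMITF cells its difference was -0.19 (adjusted p = 0.325), and its interaction was 0.33 (adjusted p = 0.782).

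**Figure D3:**
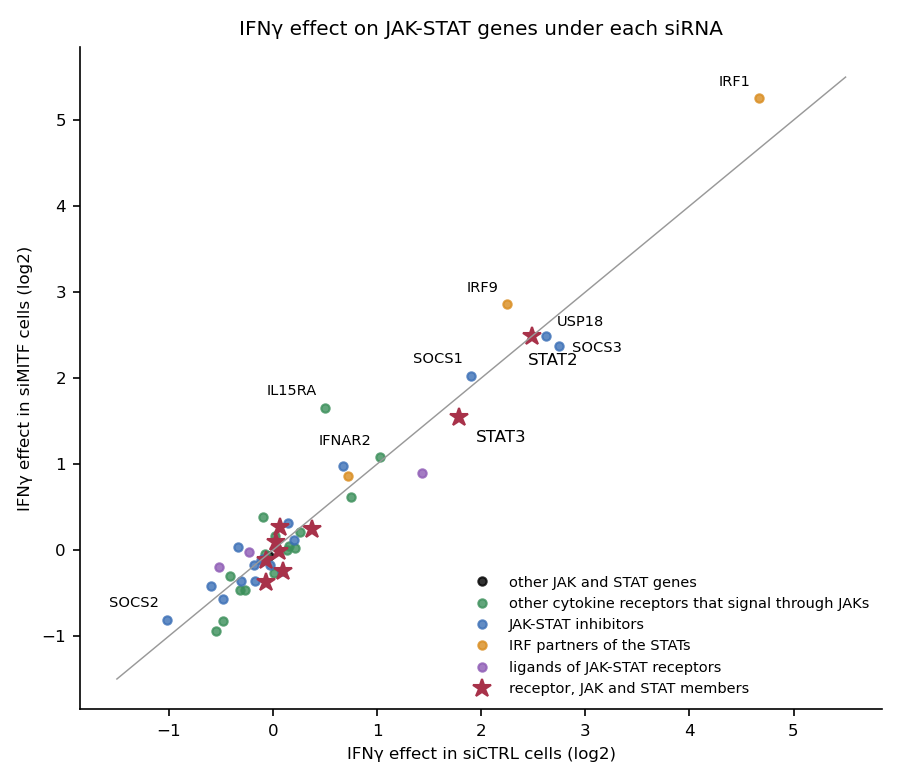
IFNγ effect in siCTRL cells (x axis) and in siMITF cells (y axis), both as log2 differences of TPM + 1 from 3 libraries per condition, for the 9 genes (stars) and the tested genes of the pathway lists (circles, coloured by list). The grey line marks equal effects, on which STAT2 lies at 2.49 and 2.49, while IL15RA at 0.50 and 1.65 and IRF9 at 2.24 and 2.86 lie above it. IL15RA reached the minimum mean for testing in siMITF + IFNγ cells only.

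For the 4 genes called in at least 1 comparison, the tested genes with the most similar profile over the 12 libraries were sought by Pearson correlation of log2(TPM + 1). All share libraries and the steps between conditions, so the values are descriptions. STAT2 was closest to HAPLN3 (r = 0.998) and ICAM1 (r = 0.997), the latter an adhesion molecule that binds leukocyte integrins. STAT3 was closest to CHST11 (r = 0.991), a chondroitin sulfotransferase, and KREMEN1 (r = 0.990), a receptor of Dickkopf proteins. STAT6 was closest to ADCY6 (r = 0.996), an adenylyl cyclase, and WASF2 (r = 0.990), an actin regulator, and TYK2 to CD320 (r = 0.967), the transcobalamin receptor, and GTF2F1 (r = 0.966), a general transcription factor subunit. Between STAT2 and STAT3 r was 0.978.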

How the data were processed

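RNA of 12 libraries, 3 per condition, was read from the deposited table of TPM per Ensembl gene ID. Per the study's methods and the submitters' processing notes, the authors trimmed reads with Trimmomatic 0.39, quantified them with kallisto on GRCh38 transcripts and used DESeq2 1.26.0 on counts that were not used here, and the deposited TPM are scaled to transcript length and library total. The Ensembl release is not given in the sources used here. TPM keep no depth, so no counting interval or detection floor was given, and their sums over the listed IDs were 975336 to 982632 per library. All sample columns of the table were used.

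Values entered limma 3.58.1 (R 4.3.3) as log2(TPM + 1). Gene IDs whose mean reached 2 TPM in any condition were tested, which left 12773, with 1 term for each condition, a trended prior and two-sided tests. P-values were adjusted by Benjamini-Hochberg over these IDs. They set each difference against the spread between libraries of a condition, which in the main fit includes differences between replicate numbers. With 3 libraries against 3, an exact permutation test cannot go below 0.1 and was not used. Tables and plots used Python 3.11.15, pandas 2.3.3, numpy 2.4.6 and matplotlib 3.10.9. Positions and exon overlaps came from GENCODE 44 and promoter windows from RefSeq (GRCh38.p14). All 9 genes matched by symbol. The fit was tested on simulated data.

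The named genes were the 9 genes, MITF, those genes of each pathway list that were called for IFNγ or, with a log2 fold change of at least 1, for siMITF, STAT5B, IFNAR1, and the 2 most correlated genes of each called member. The 9 genes and the lists were chosen with earlier results of these data known. Some genes are not reported here.

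After subtraction of condition means, libraries with the same replicate number correlated over genes in all 18 pairs (r from 0.102 to 0.625, median 0.279), whereas the 36 pairs with different numbers had a median of -0.196. The subtraction makes the 3 libraries of a condition sum to 0. Positive values for the same number thus bring negative values for different numbers, which are no separate evidence. The numbers, which come from the labels, were therefore taken to pair the libraries for the replicate pairs and the replicate block. The main fit had no term for the replicate number, so its tests and calls are not paired. Alternatives were pseudocounts of 0.1 and 0.5, no filter, a mean of at least 5 TPM, quantile normalization, median centring, no trend, only the conditions compared, the replicate block, each library left out in turn and, for motifs, the 250 bases before the start alone. Leaving out mitochondrial genes, leaving out both replicate 1 IFNγ libraries, and the block with median centring were added after seeing the data.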

Additional observations from a re-analysis of the deposited data

How the results depend on the processing

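Of the 45 effects (9 genes in 5 contrasts), 8 were called and 4 of these, STAT2 and STAT3 for IFNγ under either siRNA, were called under every alternative, while 28 of the 37 uncalled effects stayed uncalled throughout and 0 called effects changed sign. The count of genes higher with siMITF without IFNγ was 2, and was 0 with no filter, 4 with the replicate block, 4 without the replicate 1 IFNγ libraries and 4 with block and centring, where the count of lower genes was 1 instead of 0 (JAK1, -0.19, adjusted p = 0.0190). Leaving out 1 library gave 0 to 2. The count higher with siMITF with IFNγ was 1, and was 0 with no filter, without a trend or with only the conditions compared, 2 with quantile normalization, median centring, the replicate block, no mitochondrial genes or no replicate 1 IFNγ libraries, and 3 with block and centring, and 0 to 3 with 1 library left out (3 without siMITF + IFNγ replicate 1). The count lower there was 1, and was 0 with no filter or only the conditions compared, and 0 to 1 with 1 library left out. The count lower with IFNγ in siMITF cells was 0, and was 1 with quantile normalization or median centring and 2 with the replicate block or with block and centring. The replicate block changed no call of the 9 genes other than those given in the report. Of the motif matches, 1 of 2 lay within the 250 bases before a start. Among all tested genes, calls for IFNγ in siCTRL cells were 868 higher and 784 lower, and over all alternatives 650 to 1559 and 286 to 2435. In siMITF cells they were 1020 and 1554, and 772 to 1830 and 768 to 3130. For siMITF they were 2684 and 1764 without IFNγ (1898 to 3684 and 1340 to 3022) and 2348 and 1881 with it (1492 to 3444 and 1199 to 3148), and for the interaction 90 and 31 (49 to 338 and 16 to 192). The causes were not tested. With 3 libraries per condition and no depth in TPM, the calls for siMITF rest on few libraries, as the fits without 1 of them show. Those fits did not use the replicate block, with which every siMITF call was kept (adjusted p from 0.000901 to 0.00840).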
